A study of Mus musculus with 6 samples.

Results

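The protein-coding genes Rabggtb, Cct6a, Eif4a1, Eif4a2 and Eef2 carry small nucleolar RNAs (snoRNAs) in their introns and make no ribosomal protein. They were chosen by measured values, after their FPKM in both forms of the deposited tables had been seen, and they are 5 of the 44135 named genes of the series table and 5 of the 225 genes annotated as protein-coding, non-ribosomal hosts of a snoRNA on the same strand. Everything said below about the levels of these 5 genes is therefore a description. FPKM, the unit of every level here, is fragments mapped, scaled by the length of the transcript and by the depth of the library.

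RNA immunoprecipitation followed by sequencing (RIP-seq) was performed on the left ventricles of male mice aged 10 weeks, with an antibody against EZH2, the histone H3 lysine methyltransferase of Polycomb repressive complex 2, and with normal IgG as the background. The Sham mice received saline (their label reads untreated), and the other mice received angiotensin II (AngII) at 1 mg/kg/min from a subcutaneous osmotic minipump for 4 h or for 24 h. Each group had 2 mice, and a library pooled 2 RIP products, so that there were 6 libraries, 1 for each group and antibody, and no replicate. The strain is labelled C57BL/6 in 4 libraries, C57BL/7 in the AngII 4 h anti-EZH2 library and C57BL/8 in the AngII 24 h anti-EZH2 library. No difference between libraries below has a replicate check, and no test between groups was made. Values of the 6 libraries are given in the order Sham, AngII 4 h, AngII 24 h, first for IgG and then for anti-EZH2.

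Most vertebrate snoRNAs are made from introns: the host transcript is spliced, the intron lariat is opened and trimmed, and the snoRNA is left in a particle with its proteins. C/D snoRNAs guide 2′-O-methylation and H/ACA snoRNAs guide pseudouridylation, mainly of ribosomal RNA. The same stretch of genome thus gives a long messenger RNA and short, stable RNAs, and many of the hosts act in translation and protein folding.

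The host genes held 14 annotated snoRNAs on their own strand in GENCODE M21 (GRCm38). Rabggtb on chromosome 3 held Snord45b, Snord45c and Gm24494. Cct6a on chromosome 5 held Snora15 and Gm23245, Eif4a1 on chromosome 11 held Gm22988, Gm24029 and Gm25835, Eif4a2 on chromosome 16 held Snord2, Snora81, Gm24201, Gm24616 and Gm26447, and Eef2 on chromosome 10 held Snord37. All 14 lay in an intron of the main transcript of their host. The sequences of 8 of them, printed 5′ to 3′ from the GENCODE transcripts, are those on which the results turn: Snord45c and Gm24494 from neighbouring introns of Rabggtb, Snora15 of Cct6a, Gm22988 and Gm25835 of Eif4a1, Snora81 and Gm26447 of Eif4a2, and Snord37 of Eef2. Capitals mark a C box (TGATGA within the first 20 nt) and a D box (CTGA within the last 12 nt), or, where those do not occur together, an ACA box (ACA within the last 7 nt), and otherwise a D box alone. Only the transcribed strand was searched.
Snord45c, chr3:153912125-153912204 (−): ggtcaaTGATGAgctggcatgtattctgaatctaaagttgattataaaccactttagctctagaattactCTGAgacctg
Gm24494, chr3:153911610-153911690 (−): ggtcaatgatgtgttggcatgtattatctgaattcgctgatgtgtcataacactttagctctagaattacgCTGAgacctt
Snora15, chr5:129794546-129794676 (+): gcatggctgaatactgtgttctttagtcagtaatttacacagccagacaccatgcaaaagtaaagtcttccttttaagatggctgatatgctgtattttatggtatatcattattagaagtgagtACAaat
Gm22988, chr11:69669635-69669778 (−): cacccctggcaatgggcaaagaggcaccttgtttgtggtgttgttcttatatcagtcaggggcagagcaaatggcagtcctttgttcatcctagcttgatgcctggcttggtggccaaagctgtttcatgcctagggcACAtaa
Gm25835, chr11:69668852-69668995 (−): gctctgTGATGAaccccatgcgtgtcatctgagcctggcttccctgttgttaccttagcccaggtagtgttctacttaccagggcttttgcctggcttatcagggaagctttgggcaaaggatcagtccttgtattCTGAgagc
Snora81, chr16:23110756-23110933 (+): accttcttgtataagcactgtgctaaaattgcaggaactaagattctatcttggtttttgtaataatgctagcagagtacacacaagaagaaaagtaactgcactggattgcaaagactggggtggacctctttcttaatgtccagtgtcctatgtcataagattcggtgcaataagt
Gm26447, chr16:23111301-23111429 (+): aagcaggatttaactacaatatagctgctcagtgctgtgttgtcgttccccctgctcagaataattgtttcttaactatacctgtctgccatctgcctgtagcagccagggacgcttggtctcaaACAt
Snord37, chr10:81178950-81179013 (+): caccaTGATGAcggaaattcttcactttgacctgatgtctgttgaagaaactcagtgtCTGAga

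Snord45c, Gm25835 and Snord37 held both C and D boxes, a pattern of 19.3% of the 1558 annotated snoRNAs searched. Snora15, Gm22988 and Gm26447 ended in an ACA box, as did 46.0% of all. Gm24494 held the D box alone, as did 8.22%, and Snora81 held none of these letters in these windows, as did 26.4%. Within Rabggtb, Gm24494 and Snord45c were identical at 69 aligned bases, 85.2% of the longer, and within Eif4a2, Gm24201 and Gm26447 were identical at 71.3%. Reads of such near copies could be divided between them in the authors' counting, so their values are less certain.

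The forms of table differed in what they listed. The separate table of each library gave an FPKM for every one of the 14 snoRNAs beside its host, whereas the series table had an entry for 4 of them, Gm24494, Gm23245, Gm25835 and Snord37, and none for the other 10. The split followed the gene models: the 10 snoRNAs without an entry overlapped an exon of some transcript of their host, such as a retained-intron transcript, and the 4 with an entry lay within introns of every host transcript. Over all annotated hosts, 113 of 157 snoRNAs that overlapped a host exon had no entry of their own (72.0%), against 14 of 520 within introns (2.69%). All 5 snoRNAs of Eif4a2, a gene with 15 retained-intron transcripts among 25, were without an entry.

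**Figure D1:**
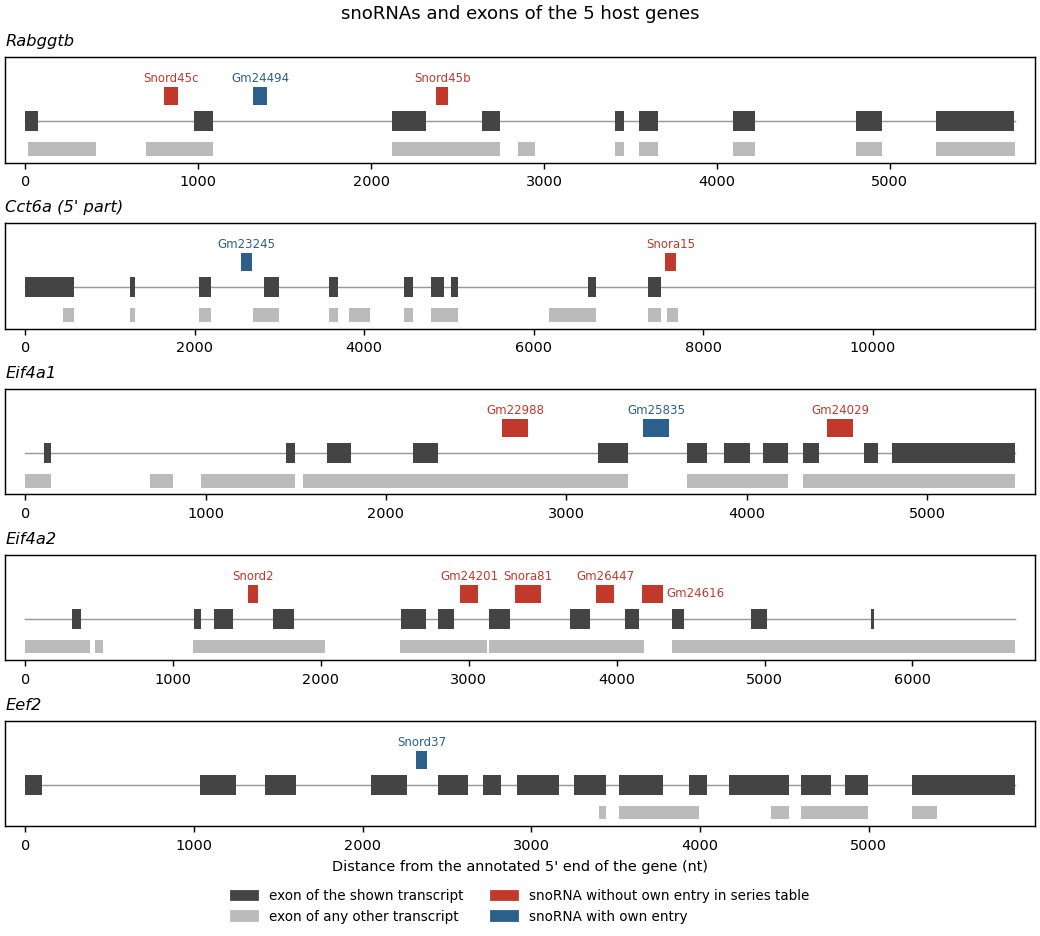
Maps of the 5 host genes, with the distance from the annotated 5′ end in nt on the x axis, exons of the main transcript in dark grey, exons of any other transcript in light grey, and snoRNAs above them (red, not listed under its own name in the series table; blue, listed). The 10 red snoRNAs stand over a light grey exon, in whole or in part, and the 4 blue ones do not; only the 5′ part of Cct6a is drawn.

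Rabggtb encodes the β subunit of Rab geranylgeranyl transferase, which attaches the lipid anchor to Rab GTPases. It lies at chr3:153907287-153913009 on the minus strand. In the series table its FPKM was 4.43, 228 and 3.65 with IgG and 1159, 2.36 and 3.27 with anti-EZH2. Only AngII 4 h IgG and Sham anti-EZH2 were high, and the other 4 libraries lay between 2.36 and 4.43. In the separate tables the same gene had 6.86, 3.49 and 7.11 with IgG and 3.91, 3.93 and 3.19 with anti-EZH2, and the deposited intervals of the antibodies overlapped in each group. The gap between the forms was thus 65.3-fold in AngII 4 h IgG and 297-fold in Sham anti-EZH2, and elsewhere the series value was 0.514 to 1.03 of the separate one.

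The snoRNAs of Rabggtb without an entry had reads in just those libraries. Snord45c had 190 FPKM in AngII 4 h IgG and 684 FPKM in Sham anti-EZH2 in the separate tables and 0 in the other 4 libraries, and Snord45b was at 0 in all 6. What 1 read is worth was estimated from genes with 1 transcript under an assumed fragment length, and by it these values were 1 read and 4 reads. At 80 nt, Snord45c is so short that 1 read was worth 231 FPKM in Sham IgG. The 684 FPKM of Sham anti-EZH2 lay below the 694 FPKM that 3 reads, the limit that a count of 0 allows, would give in Sham IgG, so no difference of Snord45c between the antibodies was detectable at this depth, and the exact 95% interval of the ratio began at 0.496.

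Gm24494, the neighbour with an entry of its own, gave a contrast within the same gene. It had 4 reads in Sham anti-EZH2 and 4 reads in AngII 4 h anti-EZH2 (651 and 477 FPKM in the separate tables) and none elsewhere. In AngII 4 h anti-EZH2 the series table gave Gm24494 753 FPKM, and Rabggtb stood at 2.36 FPKM there.

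Cct6a encodes the ζ subunit of the chaperonin TRiC (CCT), which folds actin, tubulin and other proteins, and lies at chr5:129786998-129846371 on the plus strand. GENCODE M21 types the gene as a processed transcript and RefSeq as protein-coding. Its series FPKM was 10.8, 236 and 10.1 with IgG and 534, 249 and 10.8 with anti-EZH2, against 13.9, 8.27 and 15.4 and then 6.29, 10.0 and 9.81 in the separate tables. In the series table AngII 4 h with either antibody and Sham anti-EZH2 stood at 236 FPKM or above and the other 3 libraries at 10.8 FPKM or below, and the separate values kept within 6.29 and 15.4.

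Snora15, the snoRNA of Cct6a without an entry, was read in every library, with 3, 7 and 3 reads with IgG and 12, 10 and 2 reads with anti-EZH2. The libraries with 7, 10 and 12 reads were those in which the series FPKM of Cct6a was above 200. There the series value was 1.11, 1.24 and 1.64 times the sum of the separate FPKM of Cct6a and Snora15. In the libraries with 2 or 3 reads, where Snora15 still had 63.9 to 119 FPKM in the separate tables, the series value was 0.0747 to 0.147 of that sum. Gm23245, with an entry of its own, had 0 to 3 reads in each library. Rabggtb, by comparison, was high in the series table with 1 read of Snord45c.

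Eif4a1 and Eif4a2 encode the DEAD-box RNA helicases of the cap-binding complex eIF4F, which unwind the 5′ end of messenger RNAs at the start of translation. Eif4a1 (chr11:69666936-69672423, minus strand) had 2609, 955 and 2797 FPKM with IgG and 2114, 1051 and 1332 FPKM with anti-EZH2 in the series table. Its separate FPKM was 12.1, 16.4 and 13.5 and then 10.7, 7.64 and 7.67. The gene ranked between 6 and 10 among 21220 coding genes in every library of the series table and between 661 and 1332 in the separate tables, and the series value was 58.2 to 216 times the separate one.

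Gm22988 had most of the snoRNA FPKM within Eif4a1, from 131, 85 and 98 reads with IgG and 127, 107 and 42 reads with anti-EZH2, or 3278, 1752, 2774, 2388, 1456 and 951 FPKM in the separate tables. Gm24029 added 0 to 257 FPKM, and 3 of its 6 values were not whole reads. The series value of Eif4a1 was 0.530 to 1.39 of the sum of its separate value and these snoRNAs. Gm25835, which overlaps no exon, had its own entry with 243 to 424 FPKM in 5 libraries but 63.9 FPKM in AngII 24 h anti-EZH2, from 26, 25 and 19 reads with IgG and 31, 35 and 4 reads with anti-EZH2.

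Eif4a2 (chr16:23107444-23114136, plus strand) had the highest series values of the 5, with 6806, 2566 and 3599 FPKM with IgG and 7570, 3023 and 1612 FPKM with anti-EZH2. It ranked between 2 and 9 among coding genes in that table. The separate tables gave 15.0, 22.8 and 24.7 and then 16.8, 20.3 and 15.9 FPKM, ranks of 457 to 623, so that the forms differed 101-fold to 454-fold. With its 5 snoRNAs added to the separate value, the series value was 0.765 to 1.74 of the sum.

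Of those snoRNAs, Gm26447 and Snora81 gave most of the FPKM. Gm26447 had 103, 48 and 55 reads with IgG and 103, 78 and 29 reads with anti-EZH2, and Snora81 had 82, 84 and 133 reads with IgG and 127, 107 and 40 reads with anti-EZH2. The last value of Snora81 was not whole before rounding, and a gene annotated as a microRNA overlaps it, so its reads may have been divided. Gm24616 had 7 to 16 reads, Gm24201 had 0 to 2, and Snord2 was at 0 in all libraries. The reads of both main snoRNAs were lowest in AngII 24 h anti-EZH2.

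Eef2 encodes the elongation factor that moves the ribosome along the messenger RNA by a codon. It lies at chr10:81176631-81182498 on the plus strand, and it was the member with no gap of this kind. The series FPKM was 14.0, 14.5 and 40.6 with IgG and 13.9, 17.7 and 48.2 with anti-EZH2, against 39.7, 53.6 and 59.2 and then 29.7, 52.9 and 38.4 in the separate tables. The series value was 0.270 to 1.26 of the separate one. Snord37, its snoRNA, has an entry of its own, and it was at 0 in all 6 libraries of both forms. At 64 nt it is the shortest of the 14, and 1 read would have been worth 605 FPKM in Sham IgG.

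**Figure D2:**
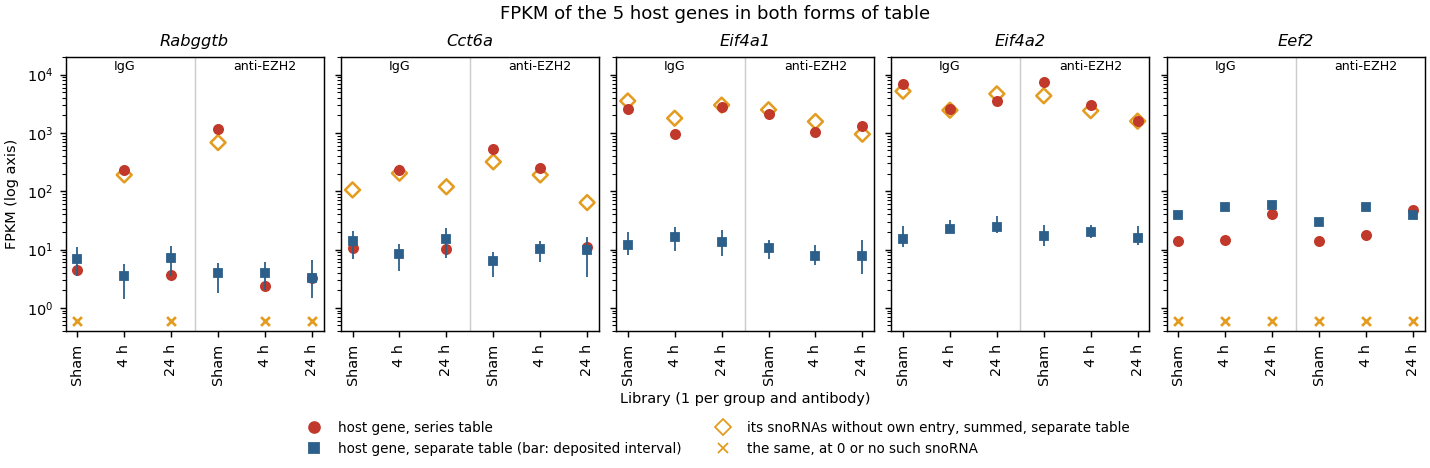
FPKM (log axis) of each host gene in the 6 libraries: red circles, series table; blue squares, separate tables, with the deposited interval as a bar; orange diamonds, the summed FPKM of its snoRNAs without an entry in the series table (crosses where that sum is 0 or there is no such snoRNA). The red circles of Eif4a1 and Eif4a2 stay beside the diamonds in all libraries, those of Rabggtb leave the blue squares only where a diamond is drawn, and those of Eef2 stay between 13.9 and 48.2 FPKM.

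A gap between the forms was rare among other coding genes. A series value above 2 times the separate one was seen for 2 of the 5 genes in Sham IgG (0.763% of coding genes), 4 of 5 in AngII 4 h IgG (0.871%), 2 of 5 in AngII 24 h IgG (0.955%), 4 of 5 in Sham anti-EZH2 (1.03%), 3 of 5 in AngII 4 h anti-EZH2 (1%) and 2 of 5 in AngII 24 h anti-EZH2 (2.04%). As the 5 genes were selected on these values, the counts describe them only. The median coding gene had a lower FPKM in the series table, at 0.472, 0.361 and 0.615 of the separate one with IgG and 0.586, 0.436 and 0.965 with anti-EZH2.

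The wider class of hosts was set by the annotation, and it was split by whether the snoRNAs were above 0 in the separate tables. The 5 genes are among its members and are kept in its counts. Of the 225 protein-coding, non-ribosomal hosts, 39 held at least 1 snoRNA without an entry. Where such a snoRNA was above 0, the host passed 2-fold in 11 of 14, 14 of 16 and 11 of 13 genes with IgG. With anti-EZH2 it passed in 13 of 14, 12 of 15 and 13 of 14 genes. The median gap, with the 5 genes included, was 24.8-fold to 98.4-fold, and medians without them are not given. The lowest, in AngII 4 h anti-EZH2, was the ratio of Cct6a itself. The 5 genes, selected on this gap, gave 2, 4 and 2 of the passing hosts with IgG and 4, 3 and 2 with anti-EZH2. Cct6a, with Snora15 above 0 in every library, did not pass in Sham IgG (0.773), AngII 24 h IgG (0.653) or AngII 24 h anti-EZH2 (1.11). Where all such snoRNAs were at 0, none of the 8 to 12 hosts passed 2-fold in any library, with medians of 0.345 to 0.998. Among hosts whose snoRNAs all had entries, none of 50 to 71 passed in 5 libraries and 1 of 65 did in AngII 24 h anti-EZH2. That host was Psmd1, at 2.28-fold, named after its value was seen. Coding genes that host no snoRNA passed in 0.290% to 1.65%.

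**Figure D3:**
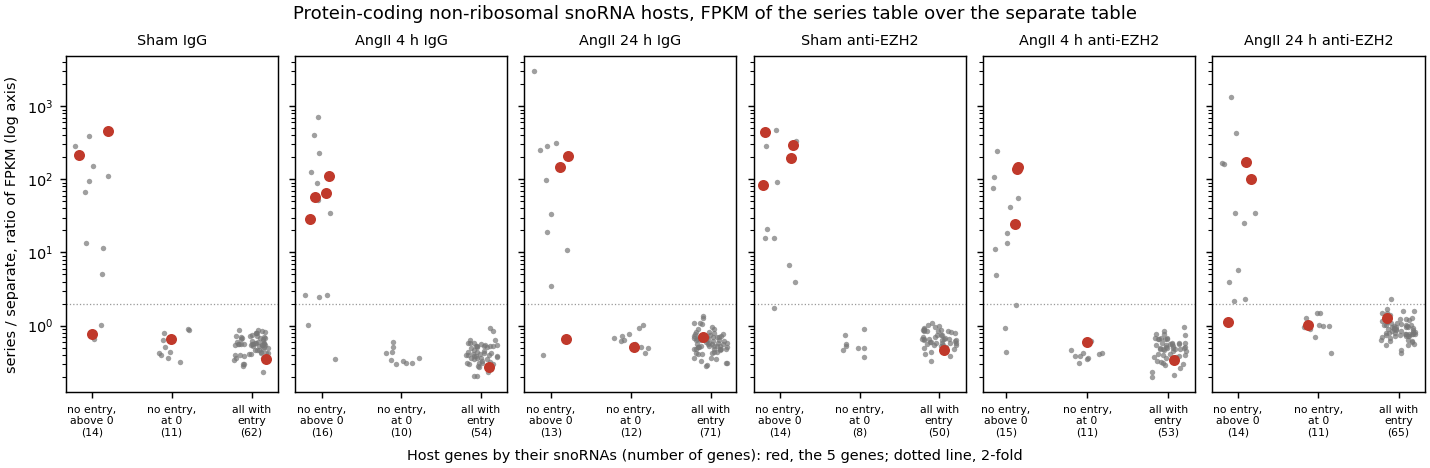
Ratio of series to separate FPKM (log axis) of protein-coding, non-ribosomal hosts with FPKM above 1 in both forms, in each library: hosts with a snoRNA that lacks an entry and is above 0, hosts with such snoRNAs at 0, and hosts whose snoRNAs all have entries. Red points are the 5 genes and the dotted line is 2-fold; in the middle column no host passes the line.

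Rabggtb moved between columns of that plot from library to library, in the first with Sham anti-EZH2 and AngII 4 h IgG and in the middle in the other 4. Beside the 5 genes, the hosts with the largest gaps were Rcc1 (3003-fold, AngII 24 h IgG), Nop56 (477-fold, Sham anti-EZH2), Ncapd2 (425-fold, AngII 24 h anti-EZH2), Ep400 (330-fold, Sham anti-EZH2) and Eif4g2 (288-fold, Sham anti-EZH2). Eif4a2 ranked first in Sham IgG among the hosts with a snoRNA lacking an entry, and Rabggtb ranked 4 of 22 in Sham anti-EZH2 but 21 of 25 in AngII 24 h IgG.

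Anti-EZH2 against IgG is the comparison by which the study looked for RNA bound by EZH2. In the series table, 2 of the 5 genes were above 2-fold in Sham (18.9% of coding genes), Rabggtb at 262-fold and Cct6a at 49.6-fold, and none were after AngII for 4 h (15.9%) or 24 h (25.3%). None of the 5 passed in the separate tables, in Sham (14.8%), at 4 h (13.5%) or at 24 h (11.6%). Rabggtb stood at 0.569 and Cct6a at 0.452 in Sham there, on the other side of 1. The large ratios were seen only in the series table, in which the snoRNAs Snord45c and Snora15 have no entry. In Sham, Snord45c had 4 reads with anti-EZH2 against 0 with IgG, and Snora15 had 12 against 3, a ratio of 3.03 with an exact interval of 0.811 to 16.6.

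In the opposite direction, IgG was more than 2-fold above anti-EZH2 in the series table for 0 of 5 in Sham (18.3%), for 1 of 5 at 4 h (10.6%) and for 2 of 5 at 24 h (20.1%). The gene at 4 h was Rabggtb, at 0.0103, and it had 1 read of Snord45c with IgG and 0 with anti-EZH2. Those at 24 h were Eif4a1 at 0.476 and Eif4a2 at 0.448. With each library rescaled to the same summed FPKM outside the mitochondrial chromosome neither passed, at 0.584 and 0.549. Of the separate values, 1 of 5 passed in Sham (27%), 1 of 5 at 4 h (17%) and 1 of 5 at 24 h (37.3%), which were Cct6a, Eif4a1 at 0.465 and Rabggtb at 0.449. After the same rescaling none of these passed: Cct6a was at 0.502, Eif4a1 at 0.502 and Rabggtb, on the other side of 1, at 1.11. The median of the 5 in the separate tables was 0.748, 0.987 and 0.637 in the 3 groups, beside 0.797, 0.911 and 0.673 for coding genes above 1 FPKM in all libraries. In the series table it was 1.11, 1.10 and 0.895, beside 0.985, 1.09 and 1.04. Rescaled, the median of the 5 turned to 1.58 at 24 h in the separate tables, where all 5 genes were above 1, and to 0.710 in Sham in the series table. The factors, 2.475 and 0.638, applied to every gene alike, so the place of the 5 relative to the coding median did not change.

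**Figure D4:**
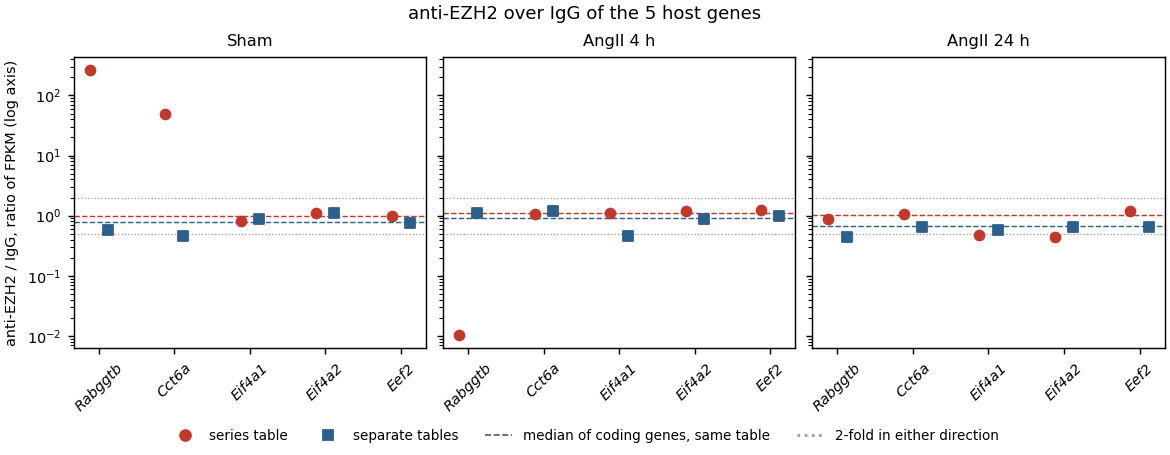
Ratio of anti-EZH2 to IgG FPKM (log axis) of the 5 genes in each group, in the series table (red circles) and in the separate tables (blue squares), with the median of coding genes in the same form (dashed) and 2-fold in either direction (dotted). Rabggtb is at 262 and 0.0103 in the series table in Sham and AngII 4 h, and at 0.569 and 1.12 in the separate tables.

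The reads of the snoRNAs were set against 1 and then against the median coding gene. The exact interval of the ratio of anti-EZH2 to IgG, which covers counting error between a pair of libraries and not the difference between mice, lay wholly above 1 for 0 of 11 snoRNAs with reads in Sham, 0 of 11 at 4 h and 0 of 9 at 24 h. It lay wholly below 1 for 2 in Sham (Gm22988 and Gm26447), for 0 at 4 h and for 6 at 24 h. Counts over all annotated snoRNAs with reads are not given here. Whether the lower values are particular to the snoRNAs of these genes was not tested. At 24 h, Gm22988 was at 0.343 (0.234 to 0.499), Snora81 at 0.245 (0.165 to 0.346), Gm26447 at 0.424 (0.260 to 0.676), Gm25835 at 0.169 (0.0418 to 0.509) and Gm24616 at 0.352 (0.122 to 0.903), and Gm24029 had 0 reads against 8. Against the coding median, rather than 1, the counts differed. In Sham, where it was 0.797, 0 intervals lay below it and 2 lay above, those of Snora15 (from 0.811) and Snora81 (from 0.875). At 4 h, where it was 0.911, 0 lay on either side, and at 24 h, where it was 0.673, 4 lay below (Gm24029, Gm25835, Gm22988 and Snora81) and 0 above. Their hosts were nearer to the median at 24 h, with Eif4a1 at 0.569 and Eif4a2 at 0.645. In the same library mitochondrial genes took 31.3% of the separate FPKM, against 6.72% to 13.9% in the other 5. The rescaling to the same summed FPKM outside the mitochondrial chromosome evens out total FPKM as well as this share. It multiplied the 24 h ratios of all genes, and so the coding median, by 2.475, and how much of that each part gave was not tested. Only the interval of Snora81 then stayed below 1 at 24 h, at 0.606 (0.409 to 0.857), and none did in Sham. Gm26447 was then at 1.05 at 24 h, and its host Eif4a2 at 1.60 and Eif4a1 at 1.41.

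**Figure D5:**
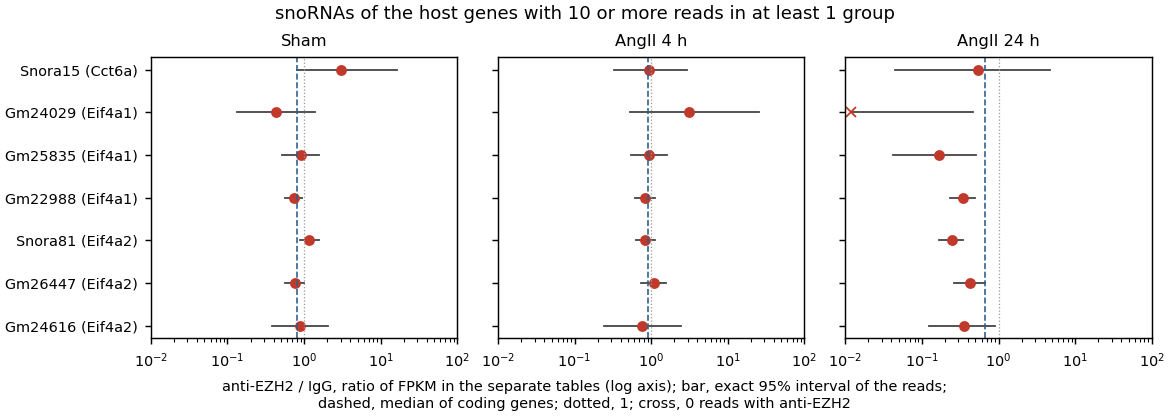
Ratio of anti-EZH2 to IgG FPKM in the separate tables (log axis) for the 7 snoRNAs of these genes with 10 or more reads in at least 1 group, with the exact 95% interval of the reads as a bar, the median of coding genes dashed and 1 dotted. At AngII 24 h every point lies left of the dashed line, from 0 for Gm24029 (cross) to 0.536 for Snora15. The bars of Snora15, Gm24616 and Gm26447 cross the dashed line there.

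After AngII, the forms of table again gave different counts. In the series table, 4 of 5 genes were past 2-fold in either direction between Sham and 4 h with IgG (29.8% of coding genes) and 4 of 5 with anti-EZH2 (28.2%). Between Sham and 24 h these were 1 of 5 with IgG (50.9%), Eef2 at 2.90-fold, and 4 of 5 with anti-EZH2 (55.7%). With libraries rescaled to the same summed FPKM outside the mitochondrial chromosome, the count at 24 h with IgG was 4 of 5. Eef2 was lost at 0.892 and Rabggtb (0.253), Cct6a (0.287), Eif4a1 (0.329) and Eif4a2 (0.162) passed. The factor at 24 h with IgG was 0.307 for every gene, and the median coding gene, at 1.54 as deposited, then passed 2-fold as well. With anti-EZH2 the count was 2 of 5 at 4 h, since Cct6a (0.569) and Eif4a1 (0.607) no longer passed. At 24 h it was 5 of 5, with Eif4a1 at 0.372. Shares of coding genes past 2-fold after the rescaling are not given here. None passed by the separate values as deposited, with 0 of 5 at 4 h with IgG (33.7%) or anti-EZH2 (35.8%), and 0 of 5 at 24 h with IgG (36.1%) or anti-EZH2 (37%). After the same rescaling 3 of 5 passed at 24 h with anti-EZH2, Cct6a at 3.64, Eef2 at 3.02 and Eif4a2 at 2.21. Its factor there was 2.33 for every gene, and the median coding gene, at 1.01 as deposited, then passed 2-fold as well. Scaled by the median ratio of coding genes, 2 of 5 passed at 4 h with IgG, Rabggtb at 0.425 and Cct6a at 0.496. The comparisons at 4 h and 24 h share the Sham library of an antibody.

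Eif4a1 and Eif4a2 were lower at 4 h than in Sham in the series table with both antibodies, at 0.366 and 0.377 with IgG and at 0.497 and 0.399 with anti-EZH2. By the separate values Eif4a1 was at 1.36 with IgG and 0.717 with anti-EZH2, and Eif4a2 at 1.52 and 1.21, beside 1.20 and 1.35 for the median coding gene. The snoRNAs were lower too: Gm26447 was at 0.384 (exact interval 0.267 to 0.546) with IgG and 0.547 (0.402 to 0.740) with anti-EZH2, and Gm22988 at 0.535 (0.402 to 0.708) and 0.610 (0.465 to 0.792). Snora81 at 4 h was at 0.843 (0.615 to 1.16) with IgG and 0.607 (0.465 to 0.792) with anti-EZH2. At 24 h Snora81 was above Sham with IgG, at 1.83 (1.38 to 2.44), and below it with anti-EZH2, at 0.384 (0.259 to 0.545). Gm26447, from the next intron of Eif4a2, was below Sham with both, at 0.601 (0.426 to 0.843) and 0.339 (0.216 to 0.516). With the same rescaling of summed FPKM, the intervals that were apart from 1 at 4 h and with IgG at 24 h kept their side. With anti-EZH2 at 24 h, however, Snora81 was at 0.896 (0.604 to 1.27) and Gm26447 at 0.791 (0.505 to 1.20).

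Eef2 was the gene whose deposited intervals, given in the separate tables, set libraries apart. They did not overlap between the antibodies in Sham (34.4 to 43.7 with IgG and 25.7 to 32.7 with anti-EZH2) and at 24 h (51.8 to 63.4 and 33.3 to 41.4), and they overlapped at 4 h. Intervals were apart for 1 of 5 genes in Sham (5.33% of coding genes), 0 of 5 at 4 h (3.62%) and 1 of 5 at 24 h (10.3%). Against Sham, they were apart for Eef2 alone, 1 of 5, at 4 h with IgG (6.19%) and anti-EZH2 (11.5%) and at 24 h with IgG (5.71%) and anti-EZH2 (4.74%). The intervals cover the authors' estimate within a library and not the difference between mice. Eef2 had the highest separate FPKM of the 5, and its ratio of anti-EZH2 to IgG, 0.748, 0.987 and 0.649, lay beside the coding medians of 0.797, 0.911 and 0.673. Rescaled as above, the last of these ratios of Eef2 was 1.61, and the coding median moved by the same factor.

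Partners of the 5 genes were set beside them from lists of their pathways. In the chaperonin, the 7 other subunits tested had series to separate ratios of at most 1.64 except Tcp1, also a snoRNA host, at up to 16.0. In Sham, 0 of 7 were above 2-fold anti-EZH2 over IgG in the series table (18.9% of coding genes) and 1 of 7, Cct8 at 2.33, in the separate tables (14.8%). Among 13 cap-binding initiation genes, Eif4g2, a scaffold protein and itself a host, reached 288-fold between the forms, and the genes that host no snoRNA stayed at or below 1.31. None of the 9 others tested was above 2-fold anti-EZH2 over IgG in Sham in the series table (18.9%), where Eif4g2 was highest at 1.90 and Eif4e, the cap-binding protein, lowest at 0.515.

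Among the elongation genes, Eef1a1, which hosts no annotated snoRNA and delivers aminoacyl-tRNA, also differed between the forms, at up to 11.4-fold. In Sham, 1 of 7 others was above 2-fold anti-EZH2 over IgG in either form (18.9% of coding genes in the series table and 14.8% in the separate tables), Eef2k, the kinase of Eef2, at 7.23 in the series table and 5.68 in the separate tables. Of the Rab prenylation genes, 4 others were tested and 1, Pggt1b, was above 2-fold in Sham in either form, at 8.30 and 6.83, beside the same shares. In the series table at 24 h the cap-binding list had 2 of 10 others above 2-fold with anti-EZH2 (25.3% of coding genes) and 2 of 10 with IgG (20.1%).

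By the pattern of log2(FPKM + 1) over the 6 libraries of the series table, the coding genes most like each of the 5, among 2396 genes above 1 FPKM in all libraries, were Mrps6 (Pearson's r = 0.949) and Tnpo1 (0.940) for Rabggtb, Sumo2 (0.988) and Ppp1r3a (0.957) for Cct6a, and Ccnd2 (0.977) and Col1a1 (0.940) for Eif4a1. For Eif4a2 they were Tbrg4 (0.950) and Ctsb (0.947), and for Eef2 Atp5a1 (0.998) and Cat (0.998). Of these 10 only Tbrg4 hosts a snoRNA. The likeness was of shape and not of size: Mrps6 ranged from 1.79 to 3.40 FPKM while Rabggtb ranged from 2.36 to 1159. All points share libraries and depth. These are the highest of 2396 correlations over 6 points, and whether such a search gives values as high among unrelated genes was not tested.

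Depth was 3810000 to 7970000 fragments per library, as recovered from what 1 read is worth, and mitochondrial genes took 17.1% to 58.5% of the FPKM of the series table. All 5 cardiomyocyte markers were above 0 in every library, with a summed separate FPKM of 4683 to 8224, against 5.14 to 34.5 for 3 atrial, 8.65 to 21.9 for 3 endothelial, 40.5 to 61.6 for 3 fibroblast, 1.37 to 4.69 for 3 macrophage, 323 to 826 for 2 erythroid and 124 to 251 for 3 skeletal muscle markers. In bulk tissue, fewer cells of a type and less RNA per cell cannot be told apart. Ezh2, whose protein was targeted, had 0.266 to 2.06 FPKM.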

How the data were processed

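RNA recovered with anti-EZH2 or IgG from left ventricles was sequenced from stranded libraries, and the reads were mapped to mm10 (GRCm38) with TopHat2, according to the labels. The authors deposited FPKM in 2 forms, a matrix of all 6 libraries, whose genes have XLOC identifiers (the series table), and a separate gene table of each library with Ensembl identifiers and an interval for each FPKM. The program and annotation behind them are not given in the sources used here. FPKM were used as deposited; 245 series entries without a gene name were left out, and separate values under 0.001 were set to 0. Genes were matched by name to GENCODE M21.

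Between the antibodies, a ratio was called past 2-fold where the numerator was above 1 FPKM and the denominator above 0. Between groups, both values had to be above 0 and the higher above 1 FPKM. Between the forms of table, both had to be above 1 FPKM. Reads were recovered from FPKM and an effective length (assumed fragment mean 200 nt, SD 80, shortest 34 nt), fitted on genes with 1 transcript. Simulated data tried the fit only. They were made with the same effective length and transcripts of 400 nt or more, so the fragment model at snoRNA lengths was not tested. Of 54 values above 0 of the members' snoRNAs, 50 were whole within 0.1 read or 0.5%. For all genes with 1 transcript of 400 nt or more and low values, 65.6% to 68.2% were whole, where chance gives 20%. Under 200 nt the share was 53.6% (AngII 4 h anti-EZH2) to 73.5% (Sham IgG), so reads are estimates. Exact intervals are Clopper-Pearson at 95%, they and the limit of 3 reads cover counting error only, and PCR copies are not separate molecules. The deposited intervals of several snoRNAs do not contain their FPKM and were not used. With 1 library per group and antibody there was no test.

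Genes named were the 5 members, the snoRNAs within them, the extremes of 4 pathway lists, the 5 other hosts with the largest gap between tables and the 2 genes most like each member. Members and lists were chosen with earlier results of these data known. Alternatives were pseudocounts, scalings, fold and FPKM limits, and the choice of snoRNAs summed. The scaling for mitochondrial genes divided each FPKM by the summed FPKM of its library outside the mitochondrial chromosome. Scripts ran in Python 3.11.15 with scipy 1.17.1, pandas 2.3.3, matplotlib 3.10.9 and numpy 2.4.6.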

Additional observations from a re-analysis of the deposited data

Results flagged for a closer look

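Rabggtb moved in opposite directions in the series table: anti-EZH2 over IgG was 262 in Sham and 0.0103 at AngII 4 h, and AngII 4 h over Sham was 51.5 with IgG and 0.00203 with anti-EZH2. Cct6a at AngII 4 h over Sham was 21.9 with IgG and 0.466 with anti-EZH2. In the separate tables the ratio of anti-EZH2 to IgG of Gm24029, a snoRNA of Eif4a1, was 0.424 in Sham (6 against 10 reads), 3.15 at AngII 4 h (8 against 2) and 0 at AngII 24 h (0 against 8). The exact intervals of the first 2 of these ratios, 0.135 to 1.37 and 0.525 to 25.5, overlapped. With 1 library per group and antibody, none of these differences was tested.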

How the results depend on the processing

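No paired analysis was possible because each group and antibody has 1 library, so that every comparison is of 1 library with 1 and comes from no test, and leaving out a library leaves no comparison. A fit with the 3 groups as blocks, which takes them as replicates, was not made. Of 293 alternatives, 245 stayed within 1.5 times. In the separate tables, a comparison added once the data had been seen, 19 of 35 ratios of the 5 genes changed their side of 1. Of anti-EZH2 to IgG ratios past 2-fold in the series table, those of Rabggtb in Sham (0.569) and at 4 h (1.12) and of Cct6a in Sham (0.452) did, and of those within 2-fold, Eif4a1 (0.465) and Eif4a2 (0.888) at 4 h, Cct6a (0.637) and Eef2 (0.649) at 24 h and Eef2 at 4 h (0.987) did. A scaling to the same summed FPKM outside the mitochondrial chromosome was also chosen later for single genes and snoRNAs. Its factors ran from 0.307 (24 h over Sham, IgG, series table) to 2.475 (anti-EZH2 over IgG, 24 h, separate tables). They hold unequal total FPKM as well as unequal mitochondrial shares, and each applies to the ratios of all genes alike. With it 17 of 70 ratios changed their side of 1 and 8 past 2-fold no longer passed. The 24 h ratio in the separate tables turned for Rabggtb (1.11), Cct6a (1.58), Eif4a1 (1.41), Eif4a2 (1.60), Eef2 (1.61) and the snoRNA Gm26447 (1.05), as did Eef2 at 24 h over Sham with IgG in the series table (0.892). The median ratio of the 5 genes became 0.710 in Sham in the series table and 1.58 at 24 h in the separate tables. In the series table, genes past 2-fold against Sham became 4 at 24 h with IgG, and 2 at 4 h and 5 at 24 h with anti-EZH2. In the separate tables they became 3 at 24 h with anti-EZH2. Scaled by the median ratio, 10 of 70 ratios changed side, 4 past 2-fold no longer passed, and 2 passed at 4 h with IgG in the separate tables. With a limit of 4-fold, series counts against Sham became 2 (4 h, IgG), 0 (24 h, IgG) and 1 (4 h, anti-EZH2). With 1.5-fold, the series count at 24 h with IgG became 2, and the separate counts 3 and 1 with IgG and 2 and 1 with anti-EZH2 at 4 h and 24 h. The scaling and limits differ by construction, and no other cause was tested. At these depths 1 read was worth the most FPKM for the shortest snoRNAs, and under 3 reads of Snord45c cannot be told from 0.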

Other observations

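Short snoRNAs were worth more FPKM per read. Over all 60 to 69 nt snoRNAs of the separate tables, 6 of 37 were above 0 in any library (16.2%), and 1 read in Sham IgG was worth 823 FPKM at the shortest and 431 FPKM at the longest. At 70 to 79 nt 95 of 242 were above 0 (39.3%), at 80 to 99 nt 72 of 178 (40.4%), at 100 to 129 nt 46 of 428 (10.7%) and at 130 to 199 nt 124 of 629 (19.7%), where 1 read was worth 36.3 to 8.01 FPKM. The 3 snoRNAs of the host genes that were at 0 in every library, Snord37, Snord2 and Snord45b, were their 3 shortest, at 64, 69 and 71 nt.

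Ribosomal protein hosts with a snoRNA lacking an entry passed 2-fold between the forms of table in 43.8% to 68.8% of 16 genes, and the 13 whose snoRNAs all had entries passed in none of the 6 libraries.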
